A study of Tupaia belangeri chinensis with 36 samples.

Results

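At embryonic day 42 (E42), the intermediate zone (IZ) of the Chinese tree shrew cortex was compared with the inner cortical plate (CPi), the deeper part of the plate that lies next to it on the side of the brain surface. Members were chosen by label: the 2 libraries labelled E42 IZ and the 2 labelled E42 CPi, 4 of the 36 libraries of the series, with every annotated feature and without the counter's own lines for unassigned reads. The series holds RNA sequencing counts of cortical layers cut from Nissl-stained fetal sections with a laser, at E28, E37 and E42, and it asks how gene expression differs between the layers and how it changes over development. All groups are fetal cortex of *Tupaia belangeri chinensis*, with no treatment and no altered allele in the labels. The other groups used below are the IZ and the undivided cortical plate (CP) at E28 (2 libraries each), the IZ (3 libraries) and CPi (2) at E37, and the ventricular zone (VZ), inner and outer subventricular zone (ISVZ and OSVZ), outer cortical plate (CPo) and marginal zone (MZ) at E42. The labels do not say whether libraries of 1 group came from different animals, so the p-values below measure the spread between libraries, which may be in part technical. This spread was estimated over all groups in the model together, not over the 4 libraries alone.

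The IZ is the layer that newborn projection neurons cross on their way from the germinal zones to the plate, along the processes of radial glia. It is also where the axons of the future white matter run, and late in gestation glial precursors, among them those of oligodendrocytes, spread through it. In the CPi, neurons of the future deep layers have finished their migration, extend dendrites and form early synapses, with the subplate at its lower border. Cut tissue holds every cell type present in the layer, so that in these libraries fewer cells of a type and less RNA per cell cannot be told apart.

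The deposited annotation lists 76871 features. Of these, 21043 carry a TSDBGID identifier, and none of those could be paired with a gene symbol. The remainder that carry a symbol are 31776 features named LINC-SYMBOL-number and 22595 named SYMBOL-AS-number. The symbol is taken here as the gene beside which the noncoding transcript was annotated, and is called its host. A LINC feature is not its host gene, and a level given below is never the level of the host. An AS feature lies opposite its host, and since the sources used here do not state whether counting used strand, its reads and those of the host cannot be told apart. Of the 12435 host symbols, 10411 were found among RefSeq symbols.

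The 4 libraries held 45173487 (IZ 1), 33892844 (IZ 2), 44756048 (CPi 1) and 44417466 (CPi 2) counts on features, within the E42 range of 21545784 to 102042743. TSDBGID features took 98.07% to 98.36% of them. Values below are CPM, the usual depth-scaled read count, with TMM factors applied to the library totals. These factors were 1.125 and 1.056 in the IZ and 0.899 and 0.8882 in the CPi. Among 13162 features at 1 CPM or more, the median absolute log2 difference was 0.214 between the IZ libraries and 0.211 between the CPi libraries, against 0.435 to 0.511 between a library of the IZ and 1 of the CPi. Libraries of different layers were therefore farther apart than libraries of the same layer. Replicate 2 of the VZ holds the same counts at E28 and at E42, so both copies were left out and the E42 VZ rests on 1 library.

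Layer identity could be checked only through noncoding features at the study's layer markers. LINC-SOX2-2, beside the progenitor transcription factor SOX2, was at 3.43 and 2.35 CPM in the IZ and 0.348 and 0.127 CPM in the CPi. It was the only 1 of 13 tested features of this list that was called (7.69%, against 0.835% of all LINC and AS features). The other 5 at SOX2 did not pass, with adjusted p from 0.0512 to 1. The features at DAB1, RELN and POU3F2 stayed at 0.551 CPM or less in all 4 libraries, and TBR1 had no tested feature. The defining coding markers of migrating and of deep-layer neurons were thus not examined.

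In the comparison of the layers, 1917 of 26780 tested features (7.16%) differed at an adjusted p under 0.05. The test was edgeR's quasi-likelihood test with Benjamini-Hochberg adjustment, fitted over 34 libraries in 18 groups, and it gives every adjusted p below. More features were higher in the CPi (1065, 3.98%) than in the IZ (852, 3.18%), but those higher in the IZ differed more. Their median log2 fold change was 1.60 (also 1.60 with features at 0 in a layer set to their bound), and 284 of them (33.3%) lay above 2. Features higher in the CPi had a median of −0.91, and 633 of them (59.4%) lay closer to 0 than −1. The median over all features tested was 0.01. An unadjusted p under 0.05 was reached by 5055 features. With any of the 4 libraries left out the count fell to between 457 and 747. Which side held more features depended on the setting. It was the IZ without IZ 1 (568 against 179), without IZ 2 (332 against 246), with all 36 libraries (615 against 516), with 35 (983 against 875), with no filter on low counts (1134 against 1011), with only the groups compared (2862 against 2566), with only the stage (2057 against 1939) and with DESeq2's size factors (906 against 890). It was the CPi with the DESeq2 Wald test (1674 against 1506), without CPi 1 (265 against 192), without CPi 2 (396 against 268) and with the replicate number as a block (2228 against 1610).

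**Figure D1:**
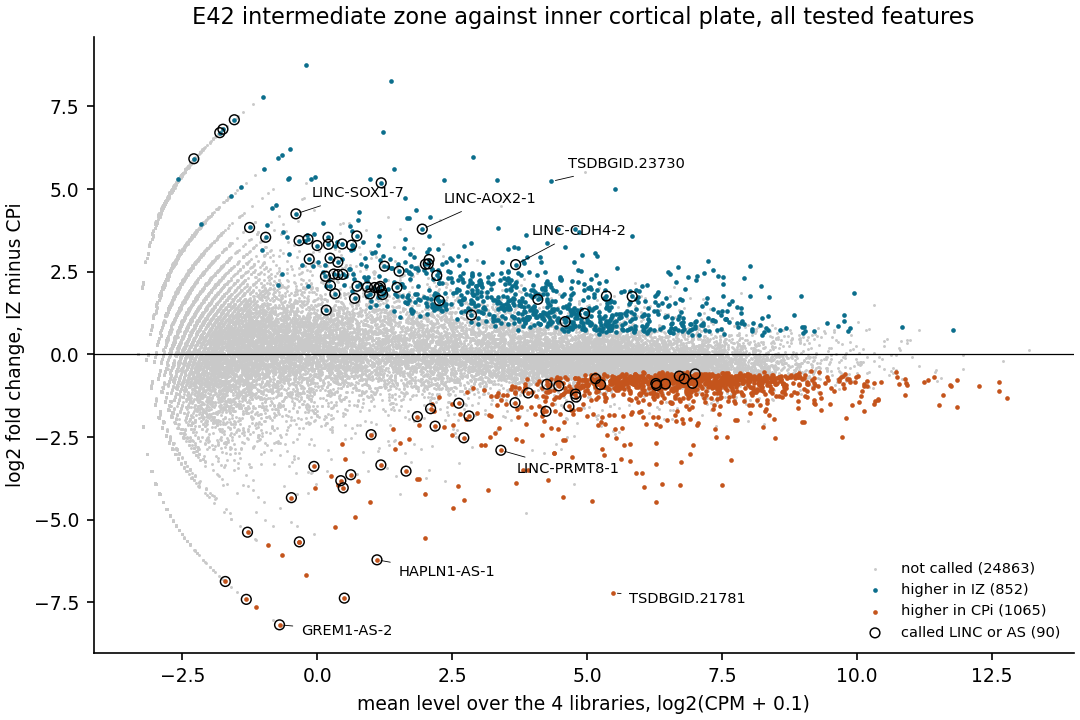
Each point is 1 of the 26780 tested features, with its mean level over the 4 libraries (log2 of CPM plus 0.1) on the x axis and its log2 fold change, IZ minus CPi, on the y axis. The 852 features called higher in the IZ reach larger fold changes at middle levels, while many of the 1065 called higher in the CPi are abundant features with small changes, and the 90 called LINC and AS features (circles) lie mostly at low levels.

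The noncoding features with a host symbol were called less often. Of 10774 LINC and AS features tested, 90 (0.835%) passed, 51 higher in the IZ (0.473%) and 39 higher in the CPi (0.362%), against 1825 of 15896 TSDBGID features (11.5%). The 90 consist of 38 of 3894 LINC (0.976%) and 52 of 6880 AS features (0.756%), and they have 84 hosts. The median log2 fold change was 2.52 for the 51 (2.42 with features at 0 set to their bound) and −1.86 for the 39, with 0.25 (0.03 at the bound) over all LINC and AS features. The 2 libraries of one layer lay wholly above the 2 of the other in 37.8% of all tested LINC and AS features and in 53.6% of all features, and in each of the 90, so this adds nothing to a call. LINC and AS features also lay at lower levels, where 1 CPM stands for 33.9 to 45.2 counts before scaling, and 87.6% of the LINC and AS features had a mean below it, against 25.7% of the TSDBGID features, and whether this bears on the share called was not tested. Leaving out libraries weighs heavily on it too: 5 of the 90 were called under every alternative tried (ADGRG1-AS-2, AKAP13-AS-6, LINC-CDH4-2, LINC-PRMT8-1 and LINC-SOX1-7), 85 were lost under at least 1, and 0 changed sign.

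Features beside genes of radial glia and of the glial lineages were called only on the IZ side. On the list of radial glia and astrocyte genes, 5 of 83 tested features were higher in the IZ (6.02%, against 0.473% of all LINC and AS features) and 0 in the CPi. The list's median was 1.56 on the log2 scale (0.56 at the bound, since 15 of the 83 had no count in the CPi libraries). It was 0.53 without IZ 1. The summed level of the list was 102 and 137 CPM in the IZ and 71.7 and 70.0 CPM in the CPi. The 5 were LINC-SOX1-7, LINC-SOX1-1, LINC-SOX2-2, LINC-SOX9-15 and LINC-NFIB-3. SOX1 and SOX2 encode transcription factors that keep neural progenitors undifferentiated, SOX9 acts in radial glia and astrocytes, and NFIB acts in gliogenesis as well as in deep-layer neurons. All 4 of the SOX features, with LINC-SOX10-1, also make up the 5 of 44 called on the list of SOX genes, where 0 were higher in the CPi, so the 2 lists are not separate evidence. The SOX list had a median of 0.92 (0.37 at the bound), with 61.4% above 0 against 57.4% of all LINC and AS features. Its summed levels overlapped, at 41.2 and 53.5 CPM in the IZ and 40.5 and 43.3 CPM in the CPi. With only the groups compared, 9 SOX features were higher in the IZ and 2 in the CPi, and with only the stage 9 and 1.

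LINC-SOX1-7 was at 1.40 and 1.12 CPM in the IZ and at 0.0746 and 0.0507 CPM in the CPi. The log2 fold change was 4.25 ± 0.80 (SE, n = 2 and 2, adjusted p = 0.00123). It was among the few that stayed called with any of the 4 libraries left out (adjusted p 0.00534 to 0.0406). All 7 tested features beside SOX1 had fold changes toward the IZ, from 1.87 to 4.39 on the log2 scale, of which 2 passed. The other, LINC-SOX1-1, was at 2.25 and 2.82 CPM in the IZ and 0.572 and 0.634 CPM in the CPi (log2 fold change 2.06, adjusted p = 0.0189), with a call lost when IZ 2, CPi 1 or CPi 2 was left out (adjusted p up to 0.19). LINC-SOX9-15 was at 2.17 and 2.04 CPM in the IZ and 0.373 and 0.228 CPM in the CPi (log2 fold change 2.79, adjusted p = 0.0146). It, like LINC-SOX2-2 (log2 fold change 3.58, adjusted p = 0.0222), lost its call whichever of the 4 libraries was left out, with adjusted p up to 0.172 and 0.224. LINC-NFIB-3 rested on IZ 2, with 0.138 and 1.06 CPM in the IZ against 0 and 0.0761 in the CPi, and without that library its adjusted p rose to 0.628. It was also lost without CPi 1 or CPi 2. In none of the 4 SOX features was the IZ the highest layer. LINC-SOX9-15 and LINC-SOX1-1 were highest in the VZ library, at 18.3 and 13.3 CPM, and LINC-SOX1-7 and LINC-SOX2-2 in the ISVZ, at 8.07 and 13.0 CPM on average.

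For the oligodendrocyte lineage, 10 of 16 tested features had a fold change above 0 (62.5%, near the 57.4% of all LINC and AS features). The list's median log2 fold change was 2.58, but 0 at the bound, and it was 1.69 without IZ 1. Of the 16, 1 was called higher in the IZ (6.25%, against 0.473% of all LINC and AS features). This was LINC-SOX10-1, beside the gene of a transcription factor that defines this lineage. Its level was 4.37 and 10.1 CPM in the IZ against 0.497 and 1.47 CPM in the CPi. The libraries of each layer differed by more than 2 times between themselves (log2 fold change 2.87 ± 0.70, SE, adjusted p = 0.0115). Without IZ 2 or without CPi 1 it was no longer called (adjusted p up to 0.22). The summed level of the list was 9.59 and 16.3 CPM in the IZ and 1.27 and 2.64 CPM in the CPi, and LINC-SOX10-1 carried much of it. OLIG2-AS-1, opposite another defining gene, was at 1.99 and 2.51 CPM in the IZ and 0.0746 and 0.482 CPM in the CPi, with an adjusted p of 0.113. NKX2-2-AS-1 was at 1.22 and 1.15 CPM in the IZ and 0.149 and 0.228 CPM in the CPi (adjusted p = 0.206), and BCAS1-AS-1 at 0.571 and 1.26 against 0.0249 and 0.0254 CPM (adjusted p = 0.0582). The 6 features of the list without a count in the CPi libraries were all at 0.118 CPM or less in the IZ. The part of glial cells in the other differences between these layers was not tested.

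**Figure D2:**
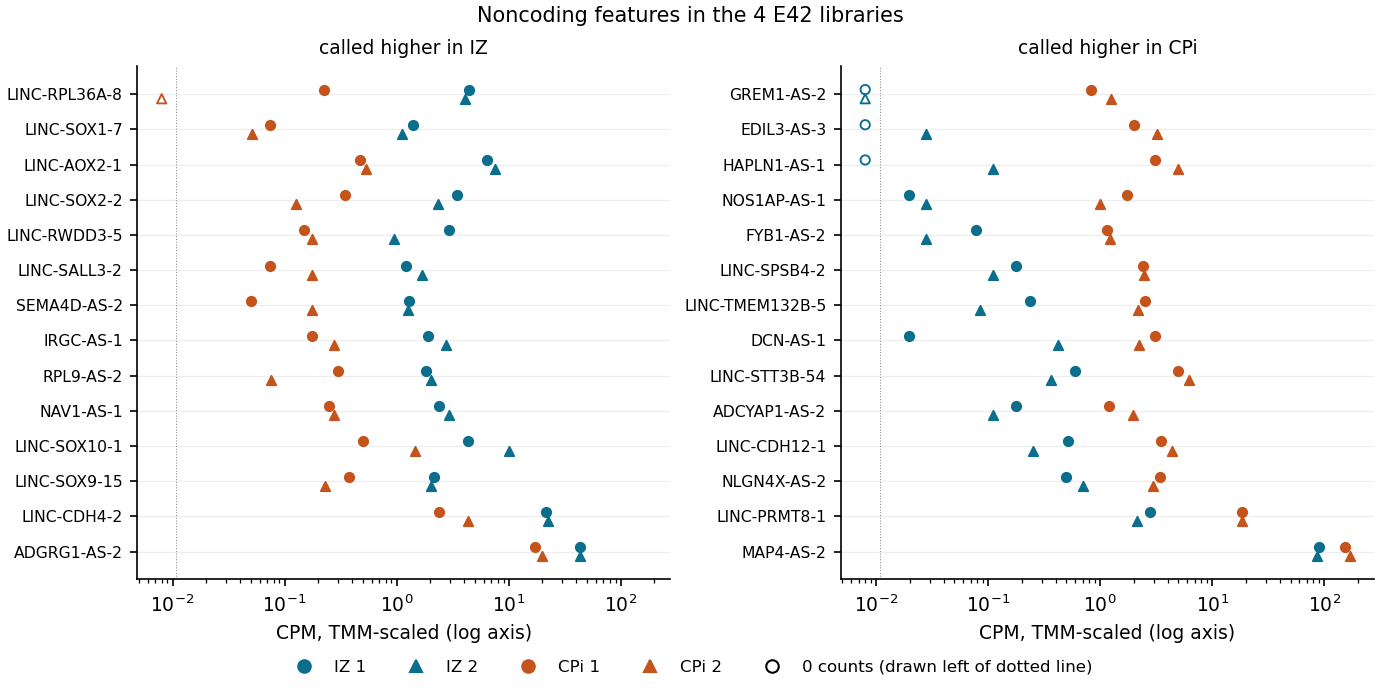
CPM (log axis) of 14 LINC and AS features called higher in the IZ (left) and 14 called higher in the CPi (right) in each of the 4 E42 libraries, with circles for library 1 and triangles for library 2 of a layer and open symbols for 0 counts. For several features on the right the IZ holds a few counts or none, and the 2 libraries of a layer mostly lie close together.

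A small set of features was higher in the IZ than in any other layer of E42. The IZ held the highest mean of 96 of the 852 features called higher in it (11.3%), against 2588 of 26702 tested features with a count at E42 (9.69%), so such features were not much more common among the called. LINC-AOX2-1, at a gene of the aldehyde oxidase family, was at 6.38 and 7.63 CPM in the IZ and 0.472 and 0.532 CPM in the CPi. Both IZ libraries stood far above all others, since the remaining layers had means of 0 to 0.0362 CPM. Its log2 fold change of 3.79 ± 1.05 (SE) passed the test (adjusted p = 0.0269), but not when any of the 4 libraries was left out (0.117 to 0.243). At E37 it was at 1.11, 2.74 and 0.534 CPM in the IZ and 0.0742 and 0 CPM in the CPi, without overlap (log2 fold change 5.14, adjusted p = 0.0766).

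RWDD3, whose protein promotes conjugation of SUMO, was the only host with 3 called LINC or AS features, of 4 tested. LINC-RWDD3-4 was at 9.08 and 5.06 CPM in the IZ and 0.796 and 1.32 CPM in the CPi (log2 fold change 2.74, adjusted p = 0.0149). LINC-RWDD3-5 was at 2.92 and 0.950 CPM against 0.149 and 0.177 CPM (3.54, adjusted p = 0.0102). LINC-RWDD3-8 was at 1.52 and 1.31 CPM against 0.124 and 0.254 CPM (2.88, adjusted p = 0.0104). The 3 share a host and may belong to 1 transcript, so they are not 3 independent results, and each lost its call without IZ 1, without CPi 1 or without CPi 2 (adjusted p up to 0.209, 0.169 and 0.188). All 3 had their highest E42 mean in the IZ, and their next highest in the CPo. At E37 the layers were close, with LINC-RWDD3-4 at 5.55, 6.32 and 6.89 CPM in the IZ and 5.57 and 3.14 CPM in the CPi (log2 fold change 0.52, adjusted p = 0.87). At E28 its level was 31.4 and 11.4 CPM in the IZ and 22.4 and 9.65 CPM in the CP, where the layers overlapped.

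**Figure D3:**
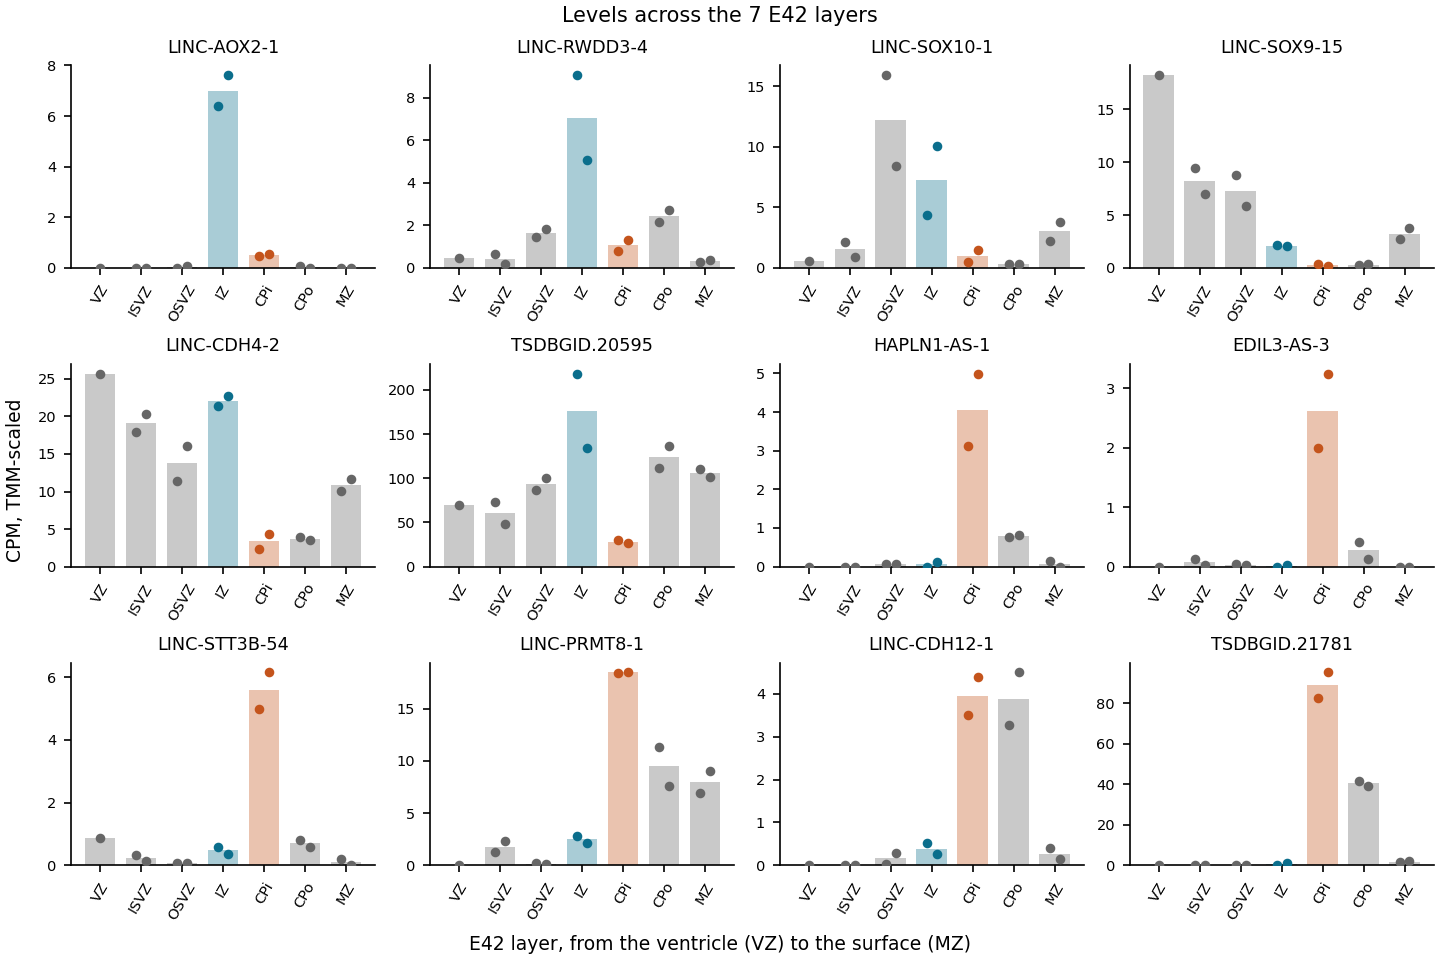
CPM of 12 called features in each library (points) and as the layer mean (bars) across the 7 layers of E42, with the IZ in blue, the CPi in orange and the VZ as 1 library. LINC-AOX2-1 and LINC-RWDD3-4 peak in the IZ, LINC-SOX9-15 falls from the VZ to the plate, HAPLN1-AS-1, EDIL3-AS-3 and LINC-STT3B-54 peak in the CPi, and LINC-CDH12-1 is about equal in the CPi and CPo.

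Among features at genes of axon guidance, 2 of 118 were higher in the IZ and 0 in the CPi, beside 0.473% and 0.362% of all LINC and AS features (median log2 fold change 0.18, and 0 at the bound). NRP2-AS-1, opposite the gene of a co-receptor for semaphorins, was at 8.05 and 7.21 CPM in the IZ and 1.74 and 1.17 CPM in the CPi (log2 fold change 2.39 ± 0.53, SE, adjusted p = 0.00533). SEMA4D-AS-2, opposite a semaphorin gene, was at 1.28 and 1.26 CPM in the IZ and 0.0497 and 0.177 CPM in the CPi (3.44, adjusted p = 0.028). NRP2-AS-1 was not called without CPi 1 or CPi 2 (adjusted p up to 0.0997), and SEMA4D-AS-2 not without any of the 4 (up to 0.316). The cadherin list had 1 of 68 features in each direction. LINC-CDH4-2, beside the gene of R-cadherin, was at 21.4 and 22.7 CPM in the IZ and 2.39 and 4.31 CPM in the CPi, with the smallest adjusted p of the 90 (log2 fold change 2.72 ± 0.36, SE, adjusted p = 3.71e-05). It passed with any library left out (adjusted p up to 0.00681). Its level was as high in the VZ (25.7 CPM) and ISVZ (19.1 CPM) as in the IZ and low in the CPo (3.72 CPM). Of 14 tested features named after CDH4 it was the only 1 called, and the 14 had log2 fold changes from −1.85 to 6.16.

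Other LINC and AS features called higher in the IZ lie beside genes of several kinds. Over all LINC and AS features, 0.473% were higher in the IZ. LINC-POU3F3-4 and LINC-POU3F3-1, beside the gene of a transcription factor of upper-layer neurons and their progenitors, were the 2 of 49 called on the upper-layer list (4.08%). LINC-POU3F3-4 was at 4.96 and 4.44 CPM in the IZ and 0.497 and 1.14 CPM in the CPi (log2 fold change 2.52, adjusted p = 0.0126). LINC-POU3F3-1 was at 27.6 and 36.5 CPM against 14.9 and 17.3 CPM (0.99, adjusted p = 0.0392). Both were highest in the OSVZ, and 17 features beside this gene were tested. On the cell cycle list 1 of 44 features was called (2.27%). This was CCNB1-AS-1, opposite the gene of cyclin B1, which starts mitosis, at 1.32 and 1.62 CPM in the IZ and 0.696 and 0.456 CPM in the CPi (1.34, adjusted p = 0.0484), with 5.43 to 6.38 CPM on average in the germinal layers. On the list of morphogen signalling 1 of 127 passed (0.787%, near the share over all LINC and AS features). This was LINC-FSTL4-1, beside a follistatin-like gene, at 8.27 and 5.34 CPM against 1.59 and 0.456 CPM (2.73, adjusted p = 0.0166). Each of these 4 lost its call without 2 or more of the 4 libraries, without IZ 1 in every case (adjusted p up to 0.223, 0.296, 0.36 and 0.234 in the order given).

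The largest fold changes toward the IZ beyond those named were at LINC-RPL36A-8, LINC-SALL3-2, IRGC-AS-1, RPL9-AS-2 and NAV1-AS-1. LINC-RPL36A-8 was at 4.39 and 4.08 CPM in the IZ and 0.224 and 0 CPM in the CPi (log2 fold change 5.19, adjusted p = 0.00674, and 0.0877 without CPi 2). RPL36A and RPL9 are ribosomal protein genes with many near-identical copies, and 42 LINC and AS features in the annotation carry the name RPL36A. Reads that aligned to more than 1 place were not assigned to any feature, so both values are uncertain. NAV1-AS-1, opposite the gene of a neuronal protein that binds growing microtubules, was at 2.38 and 2.90 CPM in the IZ and 0.249 and 0.279 CPM in the CPi (3.31 ± 0.66, SE, adjusted p = 0.00225, and 0.0608 without CPi 1). LINC-SALL3-2, beside a zinc finger transcription factor gene, was at 1.22 and 1.68 CPM against 0.0746 and 0.177 CPM, and IRGC-AS-1 at 1.89 and 2.77 CPM against 0.174 and 0.279 CPM. These passed at adjusted p of 0.0396 and 0.0106, and LINC-SALL3-2 lost its call without any of the 4 libraries, IRGC-AS-1 without IZ 2, CPi 1 or CPi 2. A pair of abundant AS features passed under every alternative, and they were picked for that after their values were seen. ADGRG1-AS-2, opposite the gene of an adhesion receptor of cortical progenitors, was at 43.3 and 43.7 CPM in the IZ and 17.1 and 19.7 CPM in the CPi (1.24 ± 0.20, SE, adjusted p = 0.000274). AKAP13-AS-6, opposite the gene of a kinase-anchoring protein, was at 27.0 and 24.5 CPM against 7.58 and 8.62 CPM (1.67 ± 0.29, SE, adjusted p = 0.000498).

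On the side of the CPi, 4 of the named AS features lie opposite genes of secreted and matrix proteins. This grouping was made from features already named, and no share over all features was counted for it. Features higher in the IZ were not sorted in this way, and EDIL3 and GREM1 do not enter the list count below. HAPLN1 encodes the link protein that ties hyaluronan to proteoglycans, EDIL3 a matrix ligand of integrins, DCN the proteoglycan decorin and GREM1 a secreted antagonist of BMPs. On the list of extracellular matrix and integrin genes, 2 of 86 features were higher in the CPi (2.33%, against 0.362% of all LINC and AS features), HAPLN1-AS-1 and DCN-AS-1, and 0 in the IZ, where the background is 0.473%, while the median of the list was 0. The summed level of the list was 55.6 and 61.6 CPM in the IZ and 58.7 and 59.4 CPM in the CPi. These sums overlapped, but they were not tested and rest on a few abundant members.

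HAPLN1-AS-1 was at 3.11 and 5.00 CPM in the CPi and 0 and 0.112 CPM in the IZ (log2 fold change −6.21 ± 1.52, SE, adjusted p = 0.0135). Of 4 tested features named after EDIL3, 1 was called, and the 4 had log2 fold changes from −7.37 to 1.97. The called EDIL3-AS-3 was at 1.99 and 3.25 CPM in the CPi, with 1 count in the IZ libraries together against 208 in the CPi. The ratio of these levels was 226, with an exact 95% counting interval of 40.1 to 8971, which covers counting error only (adjusted p = 0.0127). GREM1-AS-2 was at 0.821 and 1.24 CPM in the CPi and had no count in the IZ, which makes it at least 14.4-fold higher against a floor of 3 counts per library (adjusted p = 0.0412). All 3 were highest in the CPi among the E42 layers, with CPo means of 0.794, 0.275 and 0.395 CPM. At E37 all 3 were nearly silent in both layers, at 0.223 CPM or less. DCN-AS-1 was at 3.11 and 2.21 CPM in the CPi and 0.0197 and 0.419 CPM in the IZ (−3.64, adjusted p = 0.0476). DCN is also on the list of vessel, mural, meningeal and microglial genes, where it was the only 1 of 19 called (5.26%, against 0.362% of all LINC and AS features higher in the CPi). That list summed to 17.4 and 14.3 CPM in the CPi and 11.9 and 12.7 CPM in the IZ, with the endothelial features LINC-VWF-1 at 0 in all 4 libraries and KDR-AS-2 at 0 in 3. Each of the 4 AS features lost its call when IZ 1, CPi 1 or CPi 2 was left out (adjusted p up to 0.186, 0.174, 0.279 and 0.407 in the order HAPLN1, EDIL3, GREM1, DCN), and EDIL3-AS-3 and GREM1-AS-2 also without IZ 2.

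Features at genes of adhesion and signalling between neurons followed. LINC-CDH12-1, beside a cadherin gene of the brain, was at 3.51 and 4.39 CPM in the CPi and 0.512 and 0.251 CPM in the IZ (log2 fold change −3.34 ± 0.81, SE, adjusted p = 0.0102). NLGN4X-AS-2, opposite a gene of the neuroligins, which are postsynaptic adhesion proteins, was at 3.41 and 2.99 CPM in the CPi and 0.492 and 0.698 CPM in the IZ (−2.43, adjusted p = 0.0226). It was the only 1 of 150 called on the synaptic list (0.667%, near the 0.362% of all LINC and AS features higher in the CPi). ADCYAP1-AS-2, opposite the gene of the neuropeptide PACAP, was at 1.19 and 1.95 CPM against 0.177 and 0.112 CPM (−3.39 ± 0.74, SE, adjusted p = 0.00465). All 3 had means in the CPo (3.88, 4.12 and 1.59 CPM) near those in the CPi. At E28, ADCYAP1-AS-2 had the reverse order, at 1.26 and 3.29 CPM in the IZ and 0.296 and 0.0269 CPM in the CP (log2 fold change 3.95, adjusted p = 0.00138). NOS1AP-AS-1, opposite the gene of an adaptor of neuronal nitric oxide synthase, had 2 counts in the IZ against 109 in the CPi, a ratio of 59.2 with an exact 95% counting interval of 16.0 to 495 (adjusted p = 0.0315). All 4 lost their call without IZ 1, IZ 2 or CPi 2 (adjusted p up to 0.178, 0.261, 0.0996 and 0.278), and NLGN4X-AS-2 and NOS1AP-AS-1 also without CPi 1.

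LINC-PRMT8-1 was the LINC or AS feature higher in the CPi that passed under every alternative, and it was picked for that after its values were seen. Beside the gene of an arginine methyltransferase of neurons, it was at 18.5 and 18.5 CPM in the CPi and 2.80 and 2.15 CPM in the IZ. The CPi was its highest layer at E42, followed by the CPo at 9.48 and the MZ at 7.98 CPM. Its log2 fold change was −2.90 ± 0.50 (SE, adjusted p = 0.000548), and the adjusted p stayed between 0.00636 and 0.0326 with 1 of the 4 libraries left out. LINC-STT3B-54, named after a subunit of the enzyme that glycosylates asparagine, was at 5.00 and 6.16 CPM in the CPi and 0.591 and 0.363 CPM in the IZ (−3.53, adjusted p = 0.0157, and not called with any library left out, up to 0.205). The annotation holds 90 LINC and AS features of that name, and whether they are copies of 1 sequence was not examined. Of these, 7 were tested, with log2 fold changes from −3.53 to 1.67. The other features with the largest changes were LINC-SPSB4-2 (2.44 and 2.46 against 0.177 and 0.112 CPM), LINC-TMEM132B-5 (2.51 and 2.18 against 0.236 and 0.0838 CPM) and FYB1-AS-2 (1.14 and 1.22 against 0.0788 and 0.0279 CPM), with adjusted p of 0.0393 to 0.0494 that rose to 0.291 to 0.339 at most with a library left out, whichever it was. At TMEM132B, 12 features were tested and 2 called, both higher in the CPi, with log2 fold changes of the 12 from −5.07 to 4.56. PRR16 was the only host with more than 1 tested feature of which all were called, LINC-PRR16-6 and PRR16-AS-2, and both were higher in the CPi. Both rest on few counts, 0 in the IZ against 33 in the CPi and 1 against 48 in the order given. Their calls were lost under 6 of 11 and 7 of 10 alternatives.

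Part of the CPi side consists of abundant AS features with small differences. Among the 39, 11 had a log2 fold change closer to 0 than −1, against 1 of the 51 on the IZ side. MAP4-AS-2, opposite a gene of a microtubule-associated protein, was at 153 and 168 CPM in the CPi and 89.9 and 85.5 CPM in the IZ (log2 fold change −0.87 ± 0.20, SE, adjusted p = 0.00542). ETF1-AS-1, opposite the gene of a translation release factor, was at 104 and 102 CPM against 50.5 and 57.1 CPM (−0.94 ± 0.19, SE, adjusted p = 0.00272). Without IZ 1 neither was called (adjusted p up to 0.11 and 0.0811), and MAP4-AS-2 was also lost without IZ 2 or CPi 2. Reads at this level opposite widely expressed genes cannot be told from reads of the host.

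Several lists had no called feature in either direction. These were intermediate progenitors and newborn neurons (0 of 41), interneurons (0 of 58), subplate neurons (0 of 16), neurotransmitter receptors (0 of 67) and voltage-gated channels (0 of 116), beside 0.835% over all LINC and AS features. At an unadjusted p under 0.05 edgeR had 1, 5, 2, 1 and 3 features of these lists in the order given higher in the IZ and 0, 1, 1, 2 and 3 higher in the CPi, and the DESeq2 Wald test called 3 interneuron features and 1 at a neurotransmitter receptor, all higher in the IZ. Interneuron features were also called with other sets of libraries, with no filter on low counts and with a block, up to 6 in the IZ and 2 in the CPi, and the other lists reached at most 3 in a direction under any alternative. The lists' median log2 fold changes lay between −0.01 and 0.49, or between −0.01 and 0.29 at the bound. The summed level of the list of newborn neurons was 22.1 and 29.6 CPM in the IZ and 42.8 and 47.7 CPM in the CPi, and that of the interneuron list 73.3 and 71.9 CPM in the IZ and 48.6 and 39.0 CPM in the CPi. These sums did not overlap between the layers, but they were not tested and rest on a few abundant members. Over all LINC and AS features the sums were 16760 and 17730 CPM in the IZ and 18720 and 18140 CPM in the CPi. On the list of deep-layer projection neurons, 1 of 53 was called, LINC-NFIB-3 again, and it was higher in the IZ.

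The TSDBGID features, without gene names here, held the larger differences in absolute level. Among the 5 with the largest fold change in each direction at a mean of 10 CPM or more, those with the smallest adjusted p are given. TSDBGID.23730 was at 45.8 and 32.7 CPM in the IZ and 1.29 and 0.786 CPM in the CPi (log2 fold change 5.23 ± 0.61, SE, adjusted p = 6.65e-06). TSDBGID.24132 was at 70.9 and 106 CPM against 3.36 and 2.08 CPM (5.02 ± 0.71, SE, adjusted p = 0.000355). Both were highest in the IZ at E42, and both were also called higher in the IZ at E37 (adjusted p = 0.00173 and 0.0349). In the other direction, TSDBGID.21781 was at 82.5 and 95.2 CPM in the CPi and 0.177 and 1.06 CPM in the IZ (−7.21 ± 0.91, SE, adjusted p = 9.27e-05), and it was also called at E37 (−3.18, adjusted p = 0.035). TSDBGID.23300 was at 6.91 and 17.8 CPM in the CPi and 0.414 and 0.754 CPM in the IZ (−4.41 ± 0.79, SE, adjusted p = 0.00094). All 4 passed with any of the 4 libraries left out.

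Across the other layers of E42, the sets fell into different places. Of the 852 features higher in the IZ, 641 (75.2%) had their highest mean in a germinal layer, 368 of them in the single VZ library, 107 (12.6%) in the MZ, 96 (11.3%) in the IZ and 8 in the CPo. Of the 1065 higher in the CPi, 1022 (96%) had it in the plate, 336 in the CPo and 686 in the CPi. The choice of the sets fixes that the first cannot peak in the CPi or the second in the IZ. Among all tested features, 24% peaked in the VZ, 15.2% in the ISVZ, 10.9% in the OSVZ and 9.69% in the IZ. A further 15.9% peaked in the CPi, 12.7% in the CPo and 11.7% in the MZ, so the MZ share of the first set was near that of all features. For LINC-SOX10-1 and the features beside POU3F3 the neighbouring OSVZ held the highest mean, which for LINC-SOX10-1 was 12.2 CPM. How far tissue of the OSVZ entered the IZ samples was not tested.

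**Figure D4:**
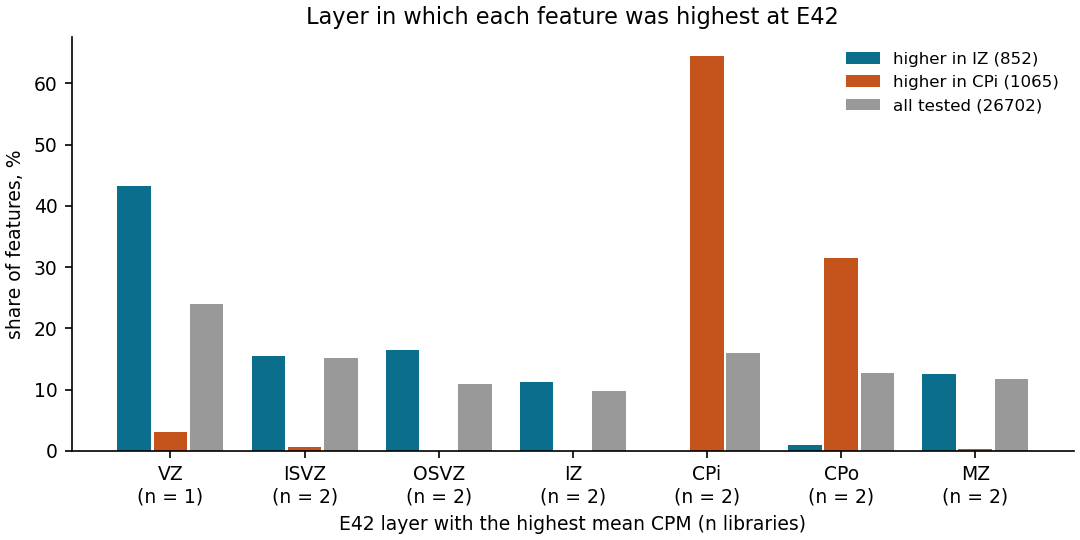
Share of features (y axis, percent) whose highest mean CPM at E42 was in each layer (x axis, with its number of libraries), for the 852 features called higher in the IZ, the 1065 called higher in the CPi and all tested features with a count at E42. The IZ set peaks most often in the VZ and the other germinal layers, and the CPi set in the CPi and CPo.

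The OSVZ and the CPo, which border the IZ and the CPi and share no library with them, gave a further comparison, with 5345 of 26780 features called (20%). In it, 811 of the 852 features (95.2%) were higher on the germinal side and 695 (81.6%) passed, while 1044 of the 1065 (98%) were higher in the CPo and 897 (84.2%) passed. In the opposite direction, 8 of the 852 and 5 of the 1065 were called. Over all features, 50.2% were higher in the OSVZ. Of the 51 LINC and AS features higher in the IZ, 33 were called in favour of the OSVZ and 2 in favour of the CPo (4.88% of all tested LINC and AS features were called in either direction). These 2 were LINC-RWDD3-8 (log2 fold change −1.97, adjusted p = 0.0454) and PFKFB3-AS-2 (−1.58, adjusted p = 0.0469), the second chosen for this after its values were seen. LINC-AOX2-1 had a log2 fold change of 0.02, with both layers near 0. Of the 39 higher in the CPi, 1 was called higher in the OSVZ, LINC-TMEM132B-23 (log2 fold change 1.90, adjusted p = 0.00216, chosen for this after its values were seen). Another 31 were called higher in the CPo, among them LINC-PRMT8-1 (−5.96, adjusted p = 4.49e-08), LINC-CDH12-1 (−4.46, adjusted p = 0.000331) and DCN-AS-1 (adjusted p = 0.00119). DCN-AS-1 was at 0 in both OSVZ libraries and at 2.01 and 0.640 CPM in the CPo, so no fold change is given for it.

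At E37, where 3 IZ and 2 CPi libraries were compared, the same test called 123 features (0.459%), 89 higher in the IZ and 34 higher in the CPi, with 2060 at an unadjusted p under 0.05. The direction found at E42 was kept by 828 of the 852 features (97.2%, against 48.3% of all tested features above 0) and by 1041 of the 1065 (97.7%). Few of them passed at E37, namely 70 of the 852 (8.22%, and 78.7% of the 89) and 27 of the 1065 (2.54%, and 79.4% of the 34). The median log2 fold changes at E37 were 0.72 and −0.36. Since the sets were chosen by their values at E42, smaller values elsewhere follow in part from that choice, and only the test of the difference speaks to a change between stages. That test called 1 feature, TSDBGID.20595 (0.00373% of those tested), while 1250 reached an unadjusted p under 0.05. At E42 it was at 219 and 135 CPM in the IZ and 29.8 and 26.9 CPM in the CPi, and at E37 at 130, 189 and 164 CPM in the IZ and 118 and 106 CPM in the CPi. The IZ levels thus overlapped between the stages and the CPi levels did not (difference of log2 fold changes 2.12 ± 0.33, SE, adjusted p = 0.0148). The test called 0 features, this one included, without E42 IZ 1, E42 CPi 1, E42 CPi 2, E37 IZ 1 or E37 CPi 3.

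Of the 51 and 39 LINC and AS features, 47 and 37 had the same direction at E37, and 1 of each passed (0.0371% of all LINC and AS features tested did). CCNB1-AS-1 was at 1.26, 0.752 and 0.845 CPM in the IZ and 0.111 and 0.238 CPM in the CPi of E37 (log2 fold change 2.43, adjusted p = 0.0165). LINC-STT3B-54 was at 0.0505, 0.221 and 0.4 CPM in the IZ and 4.93 and 5.48 CPM in the CPi (−4.50, adjusted p = 0.0101). The values of LINC-SOX1-7 were close at E37, at 0.303, 0.531 and 0.756 CPM in the IZ and 0.408 and 0.238 CPM in the CPi (0.71, adjusted p = 0.854), but the difference between the stages did not pass for any LINC or AS feature. At E28, 1431 features (5.34%) separated the IZ from the undivided CP. There, 765 of the 852 (89.8%, against 45.3% of all tested features above 0) and 949 of the 1065 (89.1%) had the direction of E42, and 418 and 210 of them passed. In the opposite direction, 2 of the 852 and 10 of the 1065 were called. LINC-SOX10-1, LINC-SOX9-15 and LINC-SOX1-1 were higher in the IZ at E28 as well, with adjusted p of 0.00633, 0.0338 and 0.000475 (0.668% of LINC and AS features were called there), although LINC-SOX10-1 was only at 0.452 and 0.309 CPM in the IZ then and had no count in the CP.

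**Figure D5:**
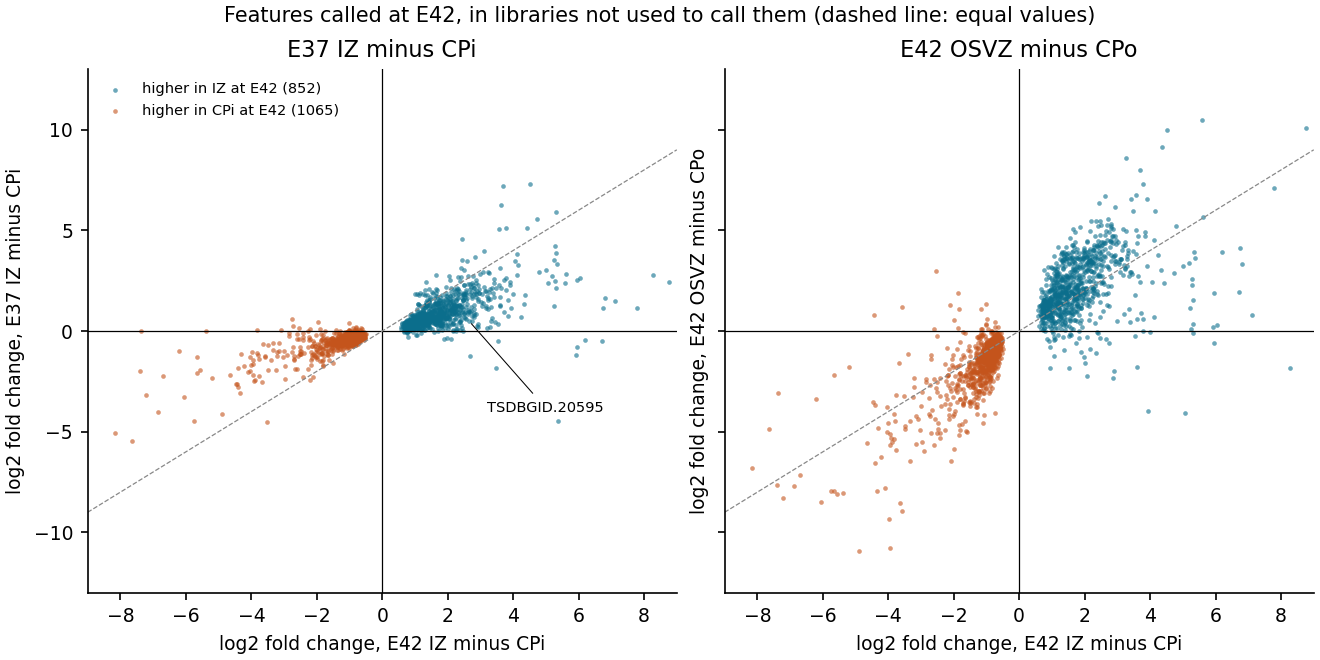
Log2 fold changes of the 1917 features called at E42 (x axis, IZ minus CPi) against those at E37 (left, IZ minus CPi) and in the layers that border them at E42 (right, OSVZ minus CPo), with the dashed line where both are equal. Nearly all points lie in the quadrants of one direction, and at E37 most lie nearer to 0 than at E42.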

How the data were processed

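RNA of laser-microdissected layers of fetal tree shrew cortex was sequenced from poly(A)-selected libraries. The authors trimmed adapters, aligned the reads to the tree shrew genome (annotation TS_3.0) using HISAT, version v2.1.0, and deposited the integer counts per feature that HTSeq-count gave, without normalization. Whether counting used strand is not given in the sources used here. Reads ambiguous between features (16.95% to 17.42% of the lines counted in the 4 libraries) were not assigned, nor were reads aligned to more than 1 place (2.35% to 2.84%). Groups were taken from the deposited labels. The counts carry no molecular identifiers, so the counting intervals and floors cover counting error only.

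The statistics used edgeR 4.0.16 and limma 3.58.1 under R 4.3.3. The 5 lines of unassigned reads were removed, filterByExpr (minimum count 10, by group) left 26780 features, and 734 of these had no count in the 4 libraries. TMM factors were computed, and 1 robust quasi-likelihood model with 18 groups was fitted to 34 libraries, with 16 residual degrees of freedom and a common biological coefficient of variation of 0.3771. Both copies of the duplicated VZ file were left out. Benjamini-Hochberg adjustment ran over all features tested within a contrast, with a threshold of 0.05. On simulated counts for E42 IZ against CPi (26780 features), the test found 24 of 100 features changed by 1 and 76 of 100 changed by 2 on the log2 scale, with 2 false calls among 102, and DESeq2 1.42.0 found 27 and 83, with 22 false among 132. The simulated libraries shared 1 mean profile apart from these changes, and their spread depended on level only. Changed features were drawn from those at 1 CPM or more. Most LINC and AS features lay below that level, so these rates do not carry over to them.

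Named among LINC and AS features were the 10 with the largest absolute log2 fold change in each direction (at least 1 CPM in the higher layer, 1 per host), called features on lists of host symbols (up to 4 per list and direction, all for cell type markers), hosts with 3 or more called features, and all tested features at the study's layer markers (SOX2, DAB1, RELN, TBR1, POU3F2 and 1 that is not reported here). TSDBGID features were named from the 5 with the largest absolute fold change in each direction at 10 CPM or more. The libraries compared, the lists and the tests were chosen with earlier results of these data known. Alternatives were other sets of libraries in the model, DESeq2's Wald test and size factors, no filter on low counts, calls kept only above 1 in absolute log2 fold change, the replicate number as a block, and each library left out in turn. Plots were drawn with matplotlib.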

Additional observations from a re-analysis of the deposited data

Results flagged for a closer look

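The test of whether the difference between IZ and CPi was the same at E37 and at E42 passed for 1 feature, TSDBGID.20595, and it is listed here because a difference between the stages passed the test. Its log2 fold change, IZ minus CPi, was 2.64 at E42 and 0.52 at E37, a difference of 2.12. At E42 the CPi held its lowest mean of the 7 layers, 28.3 CPM, while the CPo, the other part of the plate, was at 112 and 137 CPM.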

How the results depend on the processing

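No feature called in E42 IZ against CPi changed sign among the called features of any alternative, but the number called moved with most of them, and the cause was not tested. The 1917 features (852 higher in IZ, 1065 in CPi) became 3180 (1506 and 1674) with the DESeq2 Wald test, which shared 1884 of the 1917, 5428 (2862 and 2566) with only the libraries of the groups compared, and 3996 (2057 and 1939) with only those of the stage. With all 36 libraries there were 1131 (615 and 516), and with an absolute log2 fold change above 1 there were 1120 (688 and 432). The LINC and AS features higher in IZ (51) and in CPi (39) became 118 and 64 with DESeq2, 368 and 227 with only the groups compared, 245 and 130 with only the stage, and 40 and 19 with all 36 libraries. DESeq2's size factors, no filter on low counts and 35 libraries kept these counts within 1.5 times.

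With each library left out in turn, the layer left with 1 library is assumed to vary like the other groups. The total ranged from 457 (without CPi 1) to 747 (without IZ 1), with 664 without CPi 2 and 578 without IZ 2. The ranges were 192 to 568 for higher in IZ, 179 to 396 for higher in CPi, 7 to 22 for LINC and AS higher in IZ, and 3 to 9 for those higher in CPi. Of the 90 LINC and AS features, 85 lost their call under at least 1 alternative and 0 changed sign.

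For E37, the 123 features became 439 with DESeq2, 369 with no filter, 25 with all 36 libraries, 23 with only the groups compared, 27 with only the stage and 9 (without CPi 3) to 182 (without IZ 2) with a library left out, with 52, 39 and 44 without IZ 1, CPi 2 and IZ 3. For E28, the 1431 became 2243 with DESeq2, 385 with only the groups, 811 with only the stage and 722 (without CP 2) to 1166 with a library left out, with 922 and 823 without IZ 1 and IZ 2. For OSVZ against CPo, the 5345 ranged from 3470 (without CPo 1) to 4077 with a library left out, and from 4006 to 7514 under the other alternatives. The 1 feature that differed between E42 and E37 became 34 with DESeq2, 57 with no filter, 0 with 35 libraries, 0 with only the groups, 3 with only the stages, and 0 to 2 with a library left out.

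Libraries of one replicate number deviated together (correlation 0.283 for E42 IZ and CPi over 13173 features, 0.458 and 0.529 at E37, 0.229 for OSVZ and CPo, 0.604 at E28), but there were at most 2 pairs per comparison and the labels do not say what the number marks, so the reported model had no block. With the replicate block, E42 IZ against CPi gave 3838 features (1610 and 2228, among them 124 and 92 LINC and AS features), E37 194, E28 2680, the interneuron list 5 in place of 0 (all higher in IZ), and the difference between the stages 27. All but 5 of the 1917 features were among the 3838.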

Other observations

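Some called LINC and AS features had no count in either library of one layer, so that only a bound on their difference can be given, against a floor of 3 counts per library. CBX2-AS-1, opposite the gene of a Polycomb subunit, was at 0.335 and 0.643 CPM in the IZ and at least 6.49-fold higher than in the CPi (edgeR, adjusted p = 0.0372). SMC2-AS-2, opposite the gene of a condensin subunit, was at 0.295 and 0.447 CPM in the IZ and at least 4.93-fold higher (edgeR, adjusted p = 0.0488). In the other direction LINC-NRG3-28, beside the gene of a neuregulin, a ligand of ERBB4, was at 0.522 and 0.685 CPM in the CPi and at least 8.45-fold higher than in the IZ (edgeR, adjusted p = 0.0348). These features had 31 to 48 counts in all. Their calls were lost under 4 of 11 (CBX2-AS-1), 6 of 11 (SMC2-AS-2) and 5 of 11 alternatives (LINC-NRG3-28).

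GFRA1-AS-1, opposite the gene of the receptor for the neurotrophic factor GDNF, was at 8.43 and 13.6 CPM in the CPi against 1.64 and 2.21 CPM in the IZ (log2 fold change −2.52, edgeR, adjusted p = 0.0233). Its call was lost under 4 of 12 alternatives. Of the 110 tested features whose name gives neither a symbol nor an identifier, 2 passed (1.82%). NA-721-1 was at 24.3 and 23.4 CPM in the CPi and 1.85 and 1.37 CPM in the IZ (−3.88, adjusted p = 0.00149), and NA-991-1 at 6.38 and 4.64 CPM in the IZ and 0.423 and 0.558 CPM in the CPi (3.48, adjusted p = 0.0371). The features of both paragraphs were chosen after their values were seen.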
